A study of Mus musculus with 49 samples.

Results

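The genes described here are the well expressed Zfp genes of the mouse neocortex, which encode zinc finger proteins. They were chosen by name and level: symbols made of Zfp, a number and at most 1 letter, with a mean of at least 10 CPM (counts scaled to a library total of 1000000) over all 49 mice. Zfp365, Zfp280b and Zfp866 were left out by the same rule. Of 398 Zfp symbols among 45252 gene symbols, 182 were kept, 213 lay below the minimum and 3 were left out. The rule used the mean level, so levels are described and not tested. That mean also holds the 32 transgenic mice, so the rule is not fully independent of the differences between groups: 18 genes had a ctrl-PBS mean below 10 CPM and were kept only through the higher level of the other mice. Counts are therefore also given for the 164 genes with a ctrl-PBS mean of at least 10 CPM.

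The mice, of mixed C57BL/6J x C3H/HeJ stock, were bred to model amyotrophic lateral sclerosis and frontotemporal dementia, in which the RNA-binding protein TDP-43 leaves the nucleus and aggregates in the cytoplasm. Bigenic rNLS8 mice carried NEFH-tTA, a transactivator under the neurofilament heavy chain promoter, and tetO-hTDP43∆NLS, which encodes human TDP-43 with the nuclear localization signal removed and is switched on when doxycycline is withdrawn. Monogenic controls had the tetO-hTDP43∆NLS allele alone, so effects of the transactivator and of the induced TDP-43 cannot be told apart. There were 17 monogenic mice given PBS (ctrl-PBS), 10 rNLS8 mice given PBS (TDP-PBS), 10 rNLS8 mice vaccinated with TDP-43 peptides 10 and 12 (TDP-10+12) and 12 rNLS8 mice vaccinated with peptide 15, a phosphorylated antigen (TDP-15). Vaccination started at 8 weeks of age with 40 µg in total of peptide coupled to ovalbumin, with a CpG oligonucleotide and Alhydrogel as adjuvants. The PBS groups received PBS in place of the conjugates, so vaccinated and PBS groups also differ in the ovalbumin carrier. Injections were given 5 times before and 1 time after doxycycline was removed at 25.5 weeks. Every mouse was killed at 28.5 weeks, 3 weeks after induction. Each group held both sexes, and immunized monogenic mice are not analysed here. In whole tissue, fewer cells of a type and less RNA per cell cannot be told apart.

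Most Zfp proteins read DNA through an array of C2H2 fingers, short loops in which a pair of cysteines and a pair of histidines hold a zinc ion. Many of them also carry a KRAB domain, which recruits the co-repressor Trim28 and, through it, the histone methyltransferase Setdb1 and heterochromatin proteins, and silences retroelements and other targets. KRAB zinc finger genes multiplied by duplication and often lie in clusters of similar neighbours. Others have no KRAB domain and act as activators, chromatin regulators or RNA-binding proteins.

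In a translation of the GENCODE transcripts, 70 of the 182 genes encoded a KRAB A box, 111 had C2H2 fingers without one and 1, Zfp703, had no match to the finger pattern. The KRAB box was found with a sequence profile, so a degenerate box counts as absent. The KRAB genes had a median of 12 fingers and a median level of 16.1 CPM, and the C2H2 genes without KRAB had 8 fingers and 25.5 CPM. The lowest levels inside the rule were 10.1 CPM, in Zfp607b, Zfp810 and Zfp961. Just outside it lay Zfp160 at 9.83, Zfp943 at 9.82 and Zfp790 at 9.80 CPM. By position, 42 of the genes were on chromosome 7, 16 on chromosome 17 and 13 each on chromosomes 5 and 6.

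Library totals were 17775738 to 21033608 counts, so the 3 counts taken as the floor were 0.143 to 0.169 CPM and all 182 genes stood far above it. Marker genes of neurons, glia and endothelial cells were present in every mouse. The lowest count in a library was 100 for the endothelial marker Emcn and, among neuronal and glial markers, 119 for the microglial marker Aif1. They also moved with genotype, where 21.9% of all 18220 genes tested rose and 21.6% fell in TDP-PBS. Of 8 microglial markers 6 rose in TDP-PBS, and their summed level was 244 to 286 CPM in ctrl-PBS, 300.0 to 430.0 in TDP-PBS, 253 to 417 in TDP-10+12 and 264 to 535 in TDP-15. Of 8 excitatory neuron markers 3 fell and 1 rose in TDP-PBS, with a summed level of 5639 to 8413 CPM in ctrl-PBS, 4256 to 6309.7 in TDP-PBS, 4158 to 6333 in TDP-10+12 and 4565 to 6122 in TDP-15. Of 8 inhibitory neuron markers 5 fell and 1 rose, from 1009 to 1248 CPM in ctrl-PBS to 818 to 1197 in TDP-PBS, 810.4 to 1303 in TDP-10+12 and 794 to 1026 in TDP-15. Camk2a was the largest part of the excitatory sum, at 4532 ± 472 CPM in ctrl-PBS and 3152 ± 432 in TDP-PBS. Slc17a7, the next largest, was at 1867 ± 200.1 and 1824 ± 261 CPM and did not pass. The astrocyte marker Gfap, a sign of reactive astrocytes, rose most of all markers, from 123 ± 27.1 CPM in ctrl-PBS to 381 ± 111 in TDP-PBS (log2 fold change 1.64), while the astrocyte transporter gene Slc1a2 (-0.35) and the connexin gene Gja1 (-0.29) fell. The part of these shifts in the results below was not tested.

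Which Zfp genes are strongly expressed in this tissue was read from levels per kilobase of exon, averaged over the 49 mice. Zfp385a, also known as Hzf, an RNA-binding partner of p53, was highest at 80.9 CPM per kb. Zfp362 followed at 41.2, Zfp580 at 35.6, Zfp414 at 23.3 and Zfp180 at 23.1 CPM per kb. The place of Zfp180 rests on the rNLS8 mice, since in ctrl-PBS alone it had 12.8 CPM per kb and rank 16, and Zfp414 shares 42.0% of its 100-base windows with other genes, so its count is uncertain. The median over the 182 genes was 3.71 and the lowest was Zfp738 at 0.679 CPM per kb. Spread between mice of a group, as the SD of log2 CPM, had a median of 0.15. It was smallest for Zfp746 (0.07) and Zfp706 (0.08). It was largest for Zfp57 (0.36), Zfp729a and Zfp605 (0.32 each) and Zfp738 (0.26).

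Mice with the induced transgene had more RNA of many Zfp genes than the controls. In TDP-PBS against ctrl-PBS, 74 of the 182 rose and 22 fell at an adjusted p-value under 0.05 in edgeR's quasi-likelihood test, and 86 passed in neither direction. As a share, 40.7% of the Zfp genes rose and 12.1% fell, where among the 9921 tested genes of at least 10 CPM 25.5% rose and 28.6% fell. The median log2 fold change was 0.10 for the Zfp genes and -0.01 for those 9921 genes, and 129 of the 182 had a positive value. At a minimum of 20 CPM the median was 0.05, with 36 higher and 19 lower of 98 genes (36.7% and 19.4%, against 25.2% and 31.3% of the 7305 tested genes at that level). Of the 164 genes with a ctrl-PBS mean of at least 10 CPM 62 rose and 22 fell (37.8% and 13.4%, against 23.9% and 29.9% of 9706 genes chosen likewise), with a median of 0.08. The other 18 could enter only by being higher outside the controls, and 12 of them rose and 0 fell. Changes were small: 60 genes exceeded 0.25 in absolute log2 fold change, 15 exceeded 0.5 and 2 exceeded 1.

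The same comparison in the vaccinated groups, which use the same 17 control mice, gave 68 higher and 19 lower in TDP-10+12 (23.0% and 27.4% among genes of at least 10 CPM) and 77 higher and 26 lower in TDP-15 (26.6% and 30.8%). The median log2 fold changes of the Zfp genes were 0.08 and 0.10. Among the 164 genes, 57 were higher and 19 lower in TDP-10+12, and 66 higher and 26 lower in TDP-15. The shares just given are for genes chosen by the mean over all mice, so they are not matched to these counts. Shares of genes chosen by the ctrl-PBS mean are given here for TDP-PBS only. Because the controls are shared, these 3 comparisons are not independent of each other.

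The shift could be seen mouse by mouse. For each mouse, the median over the 182 genes of the distance from the ctrl-PBS mean was taken in log2 CPM. The 182 include the genes kept only through the rNLS8 mice, so these medians rest partly on the rule. They were not taken over the genes chosen by the ctrl-PBS mean. It was -0.05 to 0.05 in the controls. In TDP-PBS it ran from 0.04 to 0.18 with a median of 0.10, in TDP-10+12 from 0.08 to 0.13 with a median of 0.10, and in TDP-15 from 0.07 to 0.16 with a median of 0.11. Thus 9 of 10 TDP-PBS, all 10 TDP-10+12 and all 12 TDP-15 mice lay above the highest control, and 1 TDP-PBS mouse overlapped. In a TDP-PBS mouse 99 to 136 of the 182 genes were above their ctrl-PBS mean, with a median of 122, and in a control mouse 70 to 124, with a median of 89. The same median over the 9921 genes stayed between -0.04 and 0.02 in all 49 mice. The scaling of the libraries holds the middle of the expressed genes nearly level, so this was largely fixed in advance.

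**Figure D1:**
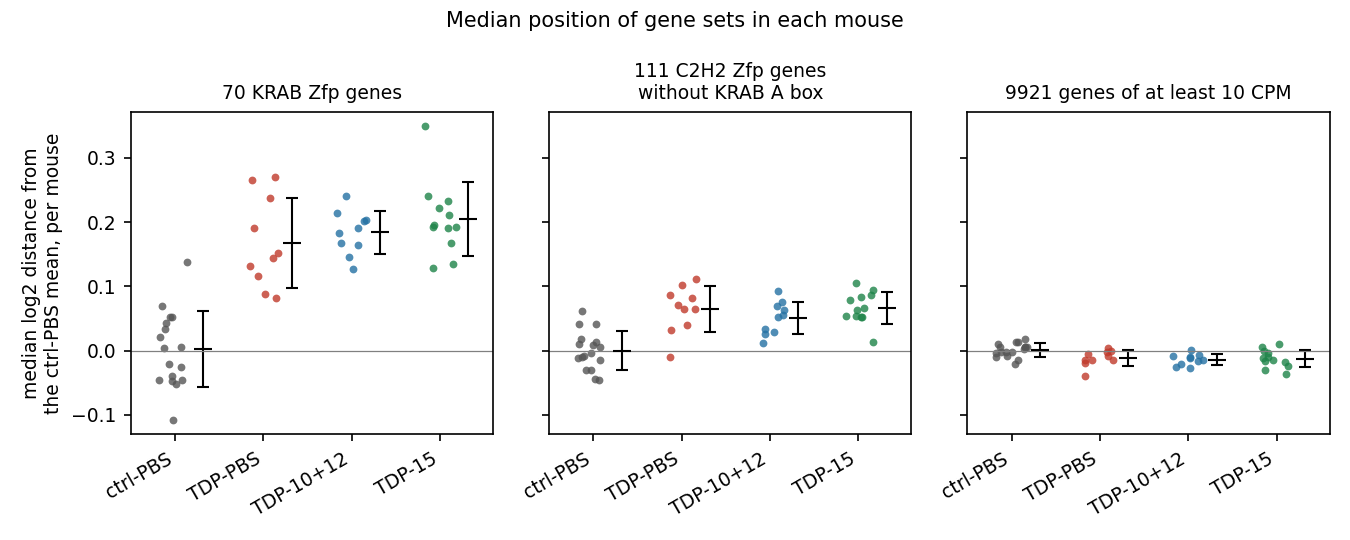
Median log2 distance from the ctrl-PBS mean in each mouse (y axis, log2 CPM) by group (x axis), for 70 KRAB Zfp genes, 111 C2H2 Zfp genes without a KRAB A box and 9921 genes of at least 10 CPM. Points are mice and black bars are the mean ± SD. The KRAB panel lies at 0.08 to 0.35 in the rNLS8 mice and at -0.11 to 0.14 in the controls. Both Zfp panels include genes that were kept only through the rNLS8 mice.

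The KRAB genes rose in a larger share than the other Zfp genes, 48.6% against 36.0% in TDP-PBS, which is a description of counts over all members. Of 70 KRAB genes 34 rose and 6 fell, with a median log2 fold change of 0.16, and 40 of 111 C2H2 genes without KRAB rose and 16 fell, with a median of 0.07. Of genes of at least 10 CPM, 25.5% rose and 28.6% fell. In TDP-10+12 the KRAB counts were 34 higher and 3 lower, and in TDP-15 38 higher and 6 lower. The genes without KRAB gave 34 higher and 16 lower in TDP-10+12, and 39 higher and 20 lower in TDP-15. Over genes of at least 10 CPM the shares were 23.0% higher and 27.4% lower in TDP-10+12, and 26.6% and 30.8% in TDP-15. The summed level of the 70 KRAB genes was 1169.8 to 1358 CPM in ctrl-PBS with a median of 1273, and 1347 to 1541 CPM in TDP-PBS with a median of 1419.7. It was 1378 to 1540.2 CPM in TDP-10+12 and 1343 to 1591 CPM in TDP-15. Of the rNLS8 mice, 8 of 10, all 10 and 11 of 12 exceeded the highest control sum. For the genes without KRAB the sums were 4025 to 4407 CPM in ctrl-PBS and 3996 to 4488 CPM in TDP-PBS, where 3 of 10 mice exceeded the highest control. By the median distance from the ctrl-PBS mean, which weights genes equally, 6 of 10 TDP-PBS mice were above every control for the KRAB genes and 7 of 10 for the genes without KRAB. The KRAB counts, sums and per-mouse medians also rest partly on the rule. Sums and medians were not taken without the genes kept only through the rNLS8 mice. With a ctrl-PBS mean of at least 10 CPM, 23 of 55 KRAB genes rose and 6 fell in TDP-PBS (41.8% and 10.9%, median 0.09). Of the genes without KRAB chosen likewise, 39 of 108 rose and 16 fell (36.1% and 14.8%, median 0.07). The shares of all tested genes chosen likewise in TDP-PBS are given above. The difference between the classes was not tested.

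By number of fingers, the share that rose in TDP-PBS was 7 of 27 genes with 0 to 3 fingers, 23 of 57 with 4 to 9, 30 of 60 with 10 to 14 and 14 of 38 with 15 or more. Their median log2 fold changes were 0.01, 0.07, 0.17 and 0.09. Of all genes of at least 10 CPM, 25.5% rose. The KRAB genes are also rich in A and T: the median GC content of their longest transcript was 42.0%, against 50.1% for the genes without KRAB and 50.2% for genes of at least 10 CPM. Among the 971 genes of at least 10 CPM with the lowest GC content 25.1% rose and 28.7% fell, while of the 53 Zfp genes among them 25 rose and 3 fell. The counts by fingers and by GC content are over all members, so they also rest partly on the rule. They were not taken without the genes kept only through the rNLS8 mice. The part of GC content in the counts was not tested further.

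**Figure D2:**
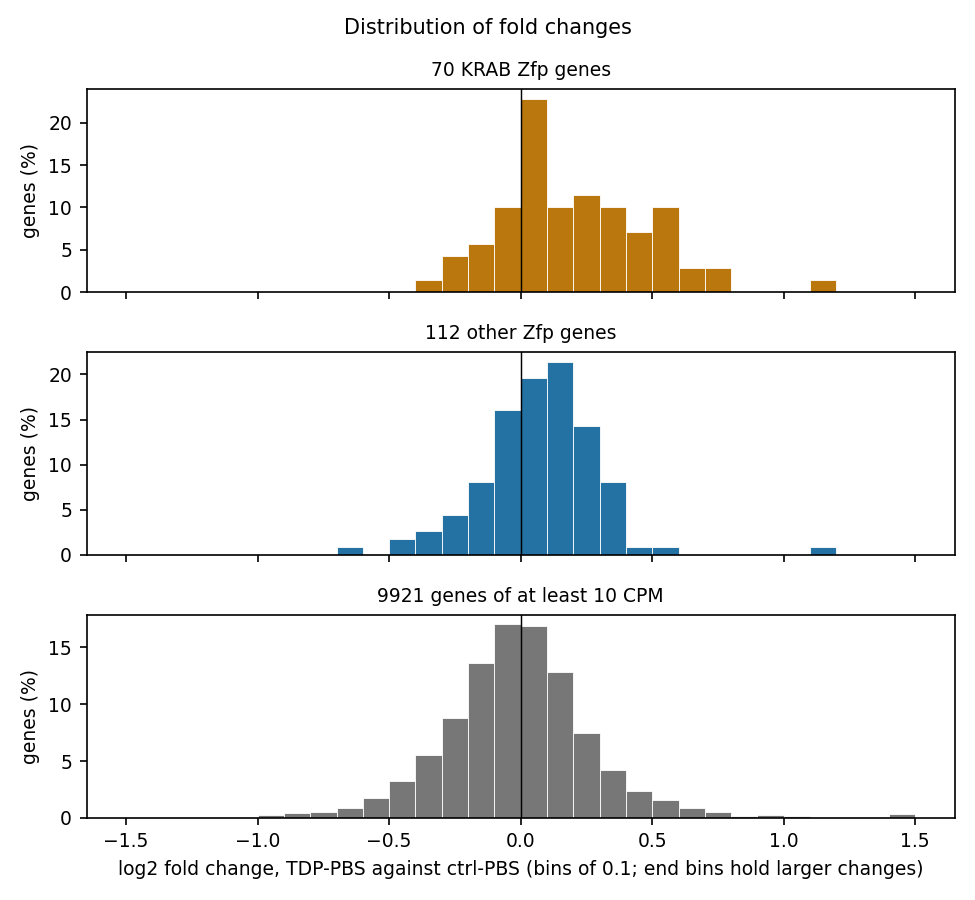
Log2 fold change of TDP-PBS against ctrl-PBS (x axis, bins of 0.1) and the percentage of genes in each bin (y axis) for 70 KRAB Zfp genes, 112 other Zfp genes and 9921 genes of at least 10 CPM. The KRAB genes have a median of 0.16 and the 9921 genes a median of -0.01, and 2 Zfp genes lie beyond 1. Both Zfp panels include genes that were kept only through the rNLS8 mice.

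Of the 213 Zfp genes below the minimum 186 could be tested, and 69 rose and 11 fell in TDP-PBS (37.1% and 5.91%), with a median log2 fold change of 0.20. Of all 8299 tested genes below 10 CPM, 17.7% rose and 13.2% fell, with a median of 0.02. Among their 143 tested KRAB genes, 56 rose and 5 fell. The 3 genes left out by the rule also changed. Zfp280b (log2 fold change 1.22) and Zfp866 (0.99) were higher and Zfp365 (-1.30) was lower in TDP-PBS, each without overlap between the 17 controls and the 32 rNLS8 mice.

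Zfp180, a C2H2 protein with 12 fingers in which the profile found no KRAB A box (GRCm38.p6, chr7:24081877-24107709), showed the largest increase. It stood at 42.5 to 73.6 CPM in ctrl-PBS with a median of 55.2, at 115 to 141 in TDP-PBS with a median of 133, at 115 to 171 in TDP-10+12 with a median of 127, and at 98.1 to 147 in TDP-15 with a median of 131. Each of the 32 rNLS8 mice was above the highest of the 17 controls. The means were 58.2 ± 8.73 CPM (SD, n = 17) and 132 ± 7.83 CPM (SD, n = 10) in ctrl-PBS and TDP-PBS, with a log2 fold change of 1.18 ± 0.07 (SE, edgeR adjusted p = 1.41e-20). The fold changes in TDP-10+12 and TDP-15 were 1.17 and 1.13.

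Zfp938, a KRAB protein with 10 fingers (chr10:82224850-82241280), came next on a far lower level. Its ctrl-PBS mean lay below the minimum of 10 CPM, so it was kept through the rNLS8 mice, and a gene that fell from this level would not have entered. It had 5.64 to 10.7 CPM in ctrl-PBS with a median of 8.78, 15.8 to 22.6 in TDP-PBS with a median of 18.5, 15.4 to 32.7 in TDP-10+12 with a median of 20.9 and 14.3 to 29.5 in TDP-15 with a median of 21.7. Again no rNLS8 mouse overlapped with the controls. The log2 fold change was 1.14 ± 0.10 in TDP-PBS (SE, edgeR adjusted p = 2.14e-14), 1.33 in TDP-10+12 and 1.35 in TDP-15.

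The other 6 of the 8 largest increases were KRAB genes. Zfp157 had 12.6 ± 1.37 CPM in ctrl-PBS and 21.1 ± 2.43 in TDP-PBS (log2 fold change 0.75). Zfp60, which encodes 19 fingers, ran from 29.2 to 42.8 CPM in the controls and from 47.1 to 63.7 in TDP-PBS (0.72). Both were higher in all 32 rNLS8 mice than in any control. Zfp763 also showed no overlap, with 7.48 ± 0.816 CPM in ctrl-PBS and 11.3 ± 1.30 in TDP-PBS (0.60). In Zfp597 (0.65), Zfp141 (0.65) and Zfp266 (0.60), 31 of 32 rNLS8 mice exceeded the highest control. Zfp763, Zfp597 and Zfp141 had ctrl-PBS means below 10 CPM and were likewise kept through the rNLS8 mice.

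Zfp239 showed the largest decrease (chr6:117862024-117872766). It encodes Mok-2, a protein that binds DNA as well as RNA. Its level was 30.7 to 38.9 CPM in ctrl-PBS with a median of 33.7, 19.0 to 28.4 in TDP-PBS with a median of 22.2, 16.4 to 26.6 in TDP-10+12 with a median of 22.2 and 19.4 to 26.8 in TDP-15 with a median of 23.0. All 32 rNLS8 mice lay below the lowest control, and the log2 value fell by 0.60 ± 0.06 in TDP-PBS (SE, edgeR adjusted p = 7.44e-12).

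Zfp523, the counterpart of human ZNF76 and a close relative of Zfp143, an activator of small nuclear RNA and messenger RNA genes, was among the most abundant members (chr17:28177196-28205886). It had 193 to 262 CPM in ctrl-PBS with a median of 231, 138 to 186 in TDP-PBS with a median of 165, 143 to 179 in TDP-10+12 with a median of 158 and 145 to 175 in TDP-15 with a median of 161. No rNLS8 mouse reached the lowest control. The log2 value fell by 0.47 ± 0.04 in TDP-PBS (SE, edgeR adjusted p = 3.93e-13), with -0.53 in TDP-10+12 and -0.50 in TDP-15.

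Zfp692, a substrate of the energy sensor AMPK, had 25.5 ± 2.26 CPM in ctrl-PBS and 18.9 ± 1.39 in TDP-PBS (log2 fold change -0.43), and 27 of 32 rNLS8 mice were below every control. Zfp385b, a relative of Zfp385a, had 71.0 ± 7.59 and 56.7 ± 5.38 CPM (-0.32), and 31 of 32 were below. Zfp575 (-0.34), Zfp3 (-0.32), Zfp605 (-0.34) and Zfp950 (-0.27) completed the 8 largest decreases. Zfp605 varied widely in every group, from 17.5 to 36.6 CPM in ctrl-PBS and from 11.0 to 31.3 in TDP-PBS, and passed in TDP-PBS (edgeR adjusted p = 0.0186) but in neither TDP-10+12 (0.684) nor TDP-15 (0.106).

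**Figure D3:**
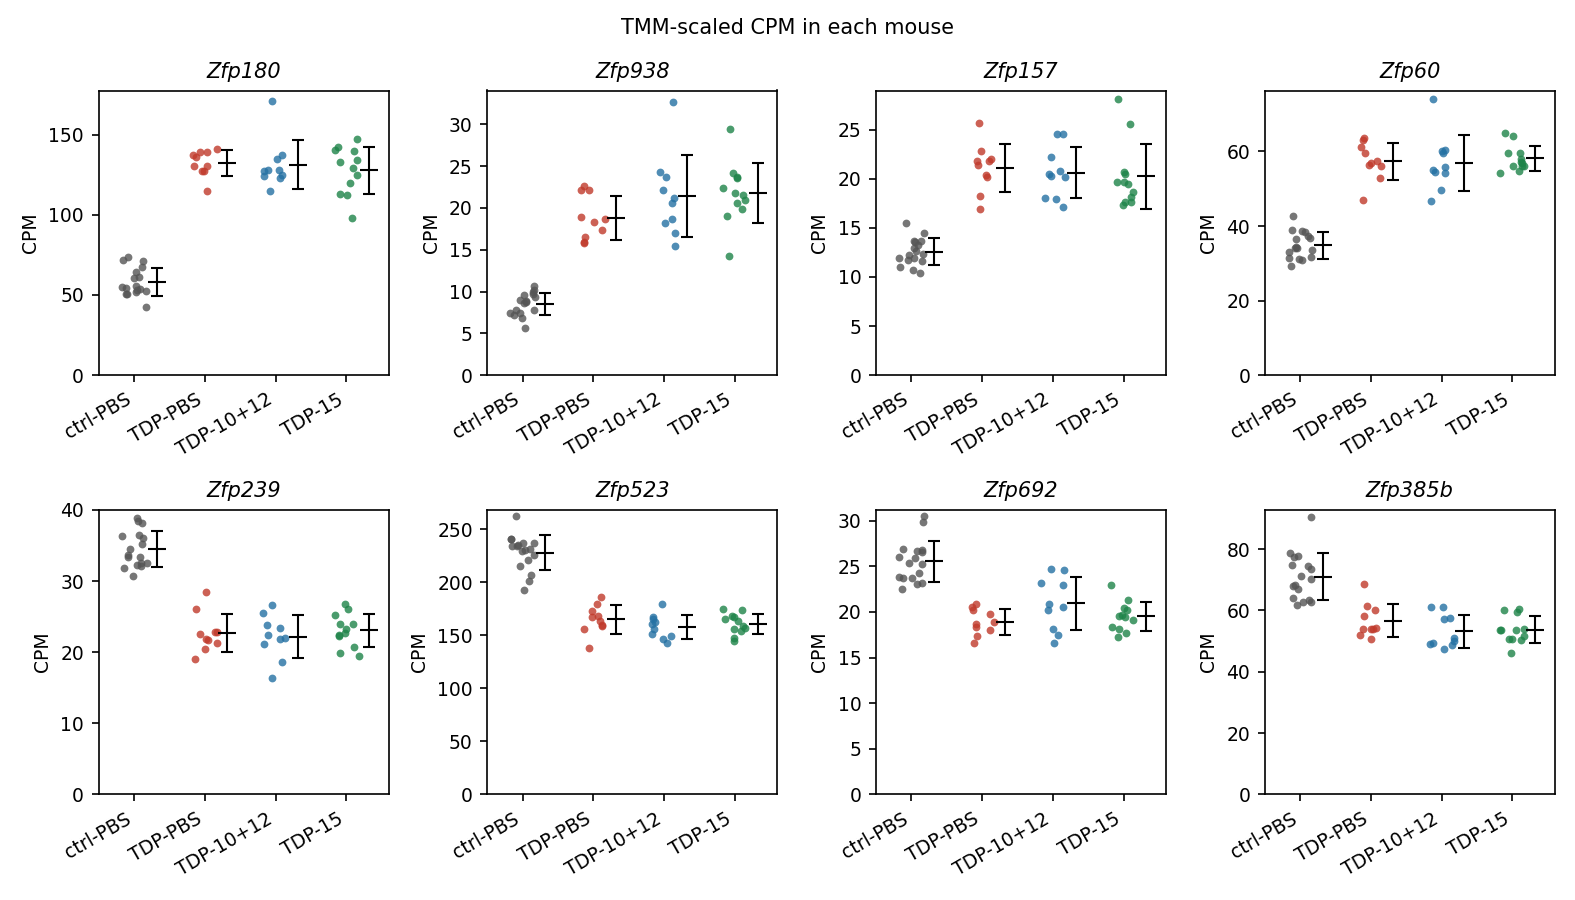
TMM-scaled CPM (y axis, from 0) in each of the 49 mice by group (x axis) for 4 Zfp genes that rose and 4 that fell; points are mice and black bars are the mean ± SD. Zfp180, Zfp938, Zfp157, Zfp60, Zfp239 and Zfp523 show no overlap between the 17 controls and the 32 rNLS8 mice.

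Counted over the members, every TDP-PBS mouse was above every control for 13 Zfp genes (3.18% of genes of at least 10 CPM did the same) and below every control for 3 (4.48%). In TDP-10+12 there were 13 above (3.37%) and 3 below (4.49%), and in TDP-15 16 above (3.55%) and 3 below (5.41%). The 13 in TDP-PBS were Zfp157, Zfp180, Zfp334, Zfp37, Zfp563, Zfp597, Zfp60, Zfp639, Zfp655, Zfp746, Zfp763, Zfp84 and Zfp938, and the 3 were Zfp239, Zfp523 and Zfp692. Of those not yet described, the KRAB gene Zfp655 had medians of 17.2 CPM in ctrl-PBS and 25.1 in TDP-PBS (log2 fold change 0.54), and the KRAB gene Zfp563 had medians of 9.05 and 12.8 CPM (0.52), again with a ctrl-PBS mean below the minimum. Zfp563 was above every control in all 32 rNLS8 mice, Zfp655 in 30. Zfp334 (0.36), Zfp37 (0.35), Zfp84 (0.35) and Zfp639 (0.30) moved less, and 27 to 31 of the 32 exceeded the highest control. These genes were chosen for their lack of overlap, after their values were seen. Among genes above every control in any of these groups, Zfp141, Zfp563, Zfp597, Zfp763 and Zfp938 had ctrl-PBS means below 10 CPM. They were kept only through the rNLS8 mice, and a gene that fell from their level would not have entered. The counts above the controls thus rest partly on the rule, and no such count was made for genes chosen by the ctrl-PBS mean.

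The promoters of the largest changes are shown because these genes moved in all rNLS8 groups. Each run is 300 bases around a RefSeq start site (GRCm38.p6), 5′ to 3′ on the strand of the gene. For Zfp180 this site lies slightly downstream of the first base of the gene span given above. Distances to motifs are counted from the start site of the run. Capitals mark matches, on either strand, to any of 8 short motifs that were searched, and no matches overlap in these 5 runs. They lie at chr7:24081647-24081946 (plus strand), chr10:82241231-82241530 (minus), chr6:117861774-117862073 (plus), chr17:28176946-28177245 (plus) and chr11:58306819-58307118 (plus).
Zfp180: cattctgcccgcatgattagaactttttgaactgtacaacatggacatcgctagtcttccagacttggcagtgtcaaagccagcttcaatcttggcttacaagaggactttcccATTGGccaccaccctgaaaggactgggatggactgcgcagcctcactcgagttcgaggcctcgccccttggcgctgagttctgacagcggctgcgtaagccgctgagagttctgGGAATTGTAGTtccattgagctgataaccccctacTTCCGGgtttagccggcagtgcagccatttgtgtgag
Zfp938: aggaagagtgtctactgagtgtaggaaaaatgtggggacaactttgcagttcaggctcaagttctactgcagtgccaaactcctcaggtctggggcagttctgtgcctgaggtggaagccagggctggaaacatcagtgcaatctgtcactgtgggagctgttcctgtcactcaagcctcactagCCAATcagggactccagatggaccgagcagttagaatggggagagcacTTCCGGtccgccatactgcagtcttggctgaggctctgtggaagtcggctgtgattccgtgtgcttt
Zfp239: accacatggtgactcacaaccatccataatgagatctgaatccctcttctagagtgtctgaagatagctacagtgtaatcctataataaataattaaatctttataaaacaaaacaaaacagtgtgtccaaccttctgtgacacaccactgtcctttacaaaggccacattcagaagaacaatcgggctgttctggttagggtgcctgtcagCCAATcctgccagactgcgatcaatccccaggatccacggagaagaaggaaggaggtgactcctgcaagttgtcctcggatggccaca
Zfp523: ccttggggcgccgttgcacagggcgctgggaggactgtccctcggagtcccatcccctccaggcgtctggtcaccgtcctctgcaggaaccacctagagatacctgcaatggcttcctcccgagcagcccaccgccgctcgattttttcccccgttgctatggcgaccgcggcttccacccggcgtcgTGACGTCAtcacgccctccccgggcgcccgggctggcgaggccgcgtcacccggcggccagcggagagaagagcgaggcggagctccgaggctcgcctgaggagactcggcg
Zfp692: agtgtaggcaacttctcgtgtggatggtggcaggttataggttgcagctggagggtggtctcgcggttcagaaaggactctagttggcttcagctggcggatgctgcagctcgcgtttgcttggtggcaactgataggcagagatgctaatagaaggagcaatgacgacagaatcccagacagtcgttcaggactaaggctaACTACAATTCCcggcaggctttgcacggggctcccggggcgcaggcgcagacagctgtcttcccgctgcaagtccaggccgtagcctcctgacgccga

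The motifs were the ETS core CCGGAA, YY1 AAGATGGC, SP/KLF GGGCGG, NF-Y CCAAT, the cyclic AMP element TGACGTCA, and, by name, the NRF1 palindrome, the interferon element and the Zfp143 and ZNF76 element, whose letters are the capitals in the run of Zfp692. RefSeq promoters were found for 151 of the 182 genes. An ETS core stood in 29.8% of these and in 36.5% of the 63 KRAB promoters, against 15.2% of all 27025 promoters of that length. The shares for the other motifs were 3.97% against 0.977% for NRF1, 7.28% against 2.88% for YY1, 49% against 35.9% for SP/KLF, 42.4% against 37.9% for NF-Y, 3.31% against 1.88% for the cyclic AMP element and 2.65% against 3.49% for the interferon element. The element named for Zfp143 and ZNF76 was in 3 of 151 promoters (1.99%, against 0.307% of all). Zfp180, which rose, held it starting 22 bases before the start site, and Zfp692, which fell, held it 48 bases before. Zfp180 and Zfp938 each held an ETS core within 17 bases of the start site used for the run, and Zfp523 held a cyclic AMP element 62 bases before it. A match is a description of letters and not of a bound site. The 27025 promoters were not limited to genes expressed in this tissue. No share was taken over genes of at least 10 CPM, so these percentages do not set Zfp genes apart from other expressed genes.

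Along the chromosomes, 10 runs of 4 or more Zfp genes with starts at most 1 Mb apart were found, and the genes of a run did not all move together. In the run on chr17:32765496-33631716, 5 of 7 genes rose and 0 fell, with a median log2 fold change of 0.42. There Zfp871 (0.42), Zfp799 (0.29), Zfp763 (0.60), Zfp563 (0.52) and Zfp81 (0.46), all KRAB genes, passed the test, and Zfp955b (0.05) and Zfp414 (-0.09) did not. In the run on chr6:47835633-48445992 5 of 6 rose, between 0.18 and 0.30. The run around Zfp180 was mixed: apart from Zfp180 itself, only Zfp575 of its 6 genes passed, and it fell. In the run on chr7:4915181-5053723, which holds no KRAB gene, 1 of 4 rose and 2 fell. All 5 Zfp genes on chromosome 4, which form no run and in which no KRAB A box was found, rose: Zfp292 (0.58), Zfp46 (0.47), Zfp362 (0.38), Zfp37 (0.35) and Zfp462 (0.34). The runs and the genes named from them were picked after their values were seen. In the run on chr17:32765496-33631716, Zfp763 and Zfp563 had ctrl-PBS means below 10 CPM and were kept only through the rNLS8 mice. The count and median of that run thus rest partly on the rule. Beside the counts of all runs, 25.5% of genes of at least 10 CPM rose and 28.6% fell in TDP-PBS. Similar neighbours can share reads: 151 of the 182 genes had no 100-base window in common with another gene's transcripts, 9 shared over 10% of their windows and 1, Zfp781, over 50%. The counts of those 9, with Zfp414, Zfp955b, Zfp865 and Zfp932 among them, are uncertain.

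**Figure D4:**
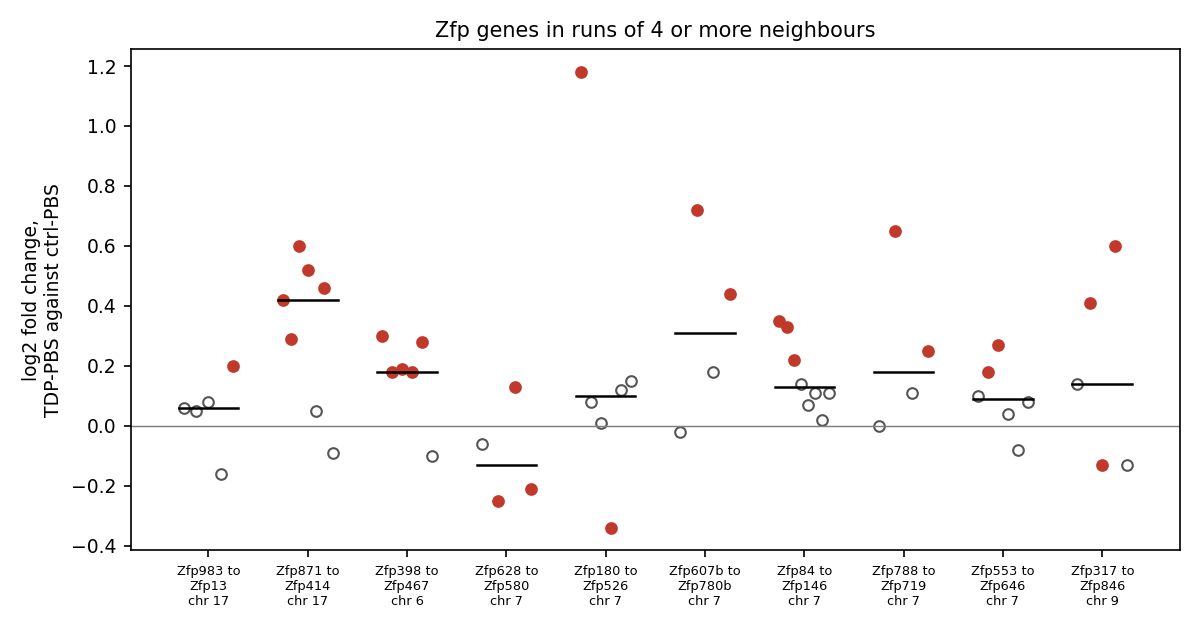
Log2 fold change of TDP-PBS against ctrl-PBS (y axis) for Zfp genes in 10 runs of 4 or more neighbours (x axis, first and last gene of each run and its chromosome). Filled red points passed at an adjusted p-value under 0.05, open points did not, and black lines are medians; Zfp180 stands at 1.18 beside neighbours between -0.34 and 0.15. Some of the genes shown were kept only through the rNLS8 mice.

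Members with known roles in RNA handling moved in both directions. Of 8 such genes, 3 rose and 1 fell in TDP-PBS, with a median log2 fold change of 0.03, where 25.5% of genes of at least 10 CPM rose and 28.6% fell. Zfp385a had 178 ± 17.6 CPM in ctrl-PBS and 224 ± 29.8 in TDP-PBS (0.33, edgeR adjusted p = 4.65e-05), and 18 of 32 rNLS8 mice were above every control. Zfp346, which binds double-stranded RNA, rose by 0.24, and Zfp622, a factor of large ribosomal subunit assembly, by 0.26. Zfp106, which binds the repeat RNA of C9orf72 and is needed by motor neurons, had 190.4 to 269.7 CPM in ctrl-PBS and 153 to 241 in TDP-PBS, and fell by 0.23 on the log2 scale (edgeR adjusted p = 0.00184). Zfp598, the sensor of collided ribosomes, was -0.08 in TDP-PBS and passed in TDP-10+12 (-0.15) and TDP-15 (-0.12). Those calls were narrow: without a filter on low counts the adjusted p of edgeR was 0.0619 in TDP-10+12 and 0.0885 in TDP-15, and in TDP-15 it was 0.0603 without mouse 301 and 0.0512 in DESeq2. Zfp207 (-0.01), Zfp326 (-0.06) and Zfp638 (0.08), which act in splicing or transcript processing, did not pass in any rNLS8 group.

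Of 12 members linked to neuronal development or its disorders, 4 rose and 0 fell in TDP-PBS, with a median of 0.12. Of genes of at least 10 CPM, 25.5% rose and 28.6% fell. Zfp292, a neurodevelopmental disorder gene, rose most, from 18.8 to 34.8 CPM in ctrl-PBS with a median of 27.5 to 31.0 to 52.1 CPM in TDP-PBS with a median of 40.3. Its log2 fold change was 0.58 ± 0.07 (SE, edgeR adjusted p = 1.19e-09), and 30 of 32 rNLS8 mice were above every control. Zfp507 (0.37), Zfp462 (0.34) and Zfp423 (0.22), a regulator of cerebellar development, also rose in TDP-PBS. Zfp804a, a schizophrenia risk gene, had 24.3 ± 4.90 CPM in ctrl-PBS and 23.0 ± 4.32 in TDP-PBS and did not pass. Zfp335 (-0.01), Zfp407 (0.07), Zfp521 (0.14), Zfp536 (0.15), Zfp608 (0.00), Zfp609 (0.04) and Zfp703 (0.10) did not pass in TDP-PBS either, and Zfp407 passed in TDP-15 alone (0.19).

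The members that guard imprinted genes or retroelements gave 1 higher and 1 lower of 4 in TDP-PBS, with a median of 0.02. The shares over genes of at least 10 CPM were 25.5% higher and 28.6% lower. Zfp57 and Zfp445, which hold methylation at imprinted loci, had log2 fold changes of 0.03 ± 0.13 and 0.01 ± 0.06 (SE). Zfp57 was the most variable member, at 13.1 to 23.1 CPM in ctrl-PBS and 10.2 to 25.4 in TDP-PBS. Zfp961 rose by 0.23 and Zfp932 fell by 0.18 on the log2 scale. The ctrl-PBS mean of Zfp961 was 8.86 CPM, so it was kept only through the rNLS8 mice. The count of 1 higher thus rests on the rule. Its call was also lost in limma-voom with quality weights (adjusted p = 0.0742). Zfp932 shares 22.1% of its windows with another gene, mostly Gm15446, so its value is uncertain.

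Among 14 broadly expressed regulators of transcription and chromatin, 8 rose and 1 fell in TDP-PBS, with a median of 0.15. Over genes of at least 10 CPM, 25.5% rose and 28.6% fell. Zfp746, known as PARIS, a repressor of PGC-1α and a parkin substrate, was the member with the least spread. It had 24.1 to 27.4 CPM in ctrl-PBS and 29.3 to 33.7 in TDP-PBS, with no overlap (0.28 ± 0.03 SE, edgeR adjusted p = 1.14e-09). Zfp281 (0.31), Zfp687 (0.26), Zfp24 (0.26), which is needed for myelination, Zfp410 (0.20), Zfp532 (0.19), Zfp644 (0.17) and Zfp148 (0.12) rose as well. Zfp91, a ubiquitin ligase of the NF-κB pathway, fell by 0.19. Chd4, the gene known to depend on Zfp410, was at 161 ± 6.97 CPM in ctrl-PBS and 167 ± 16.4 in TDP-PBS (log2 fold change 0.06, edgeR adjusted p = 0.198). Zfp219 (-0.07), Zfp263 (0.04), Zfp384 (0.02), Zfp451 (-0.01) and Zfp592 (0.07) did not pass.

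**Figure D5:**
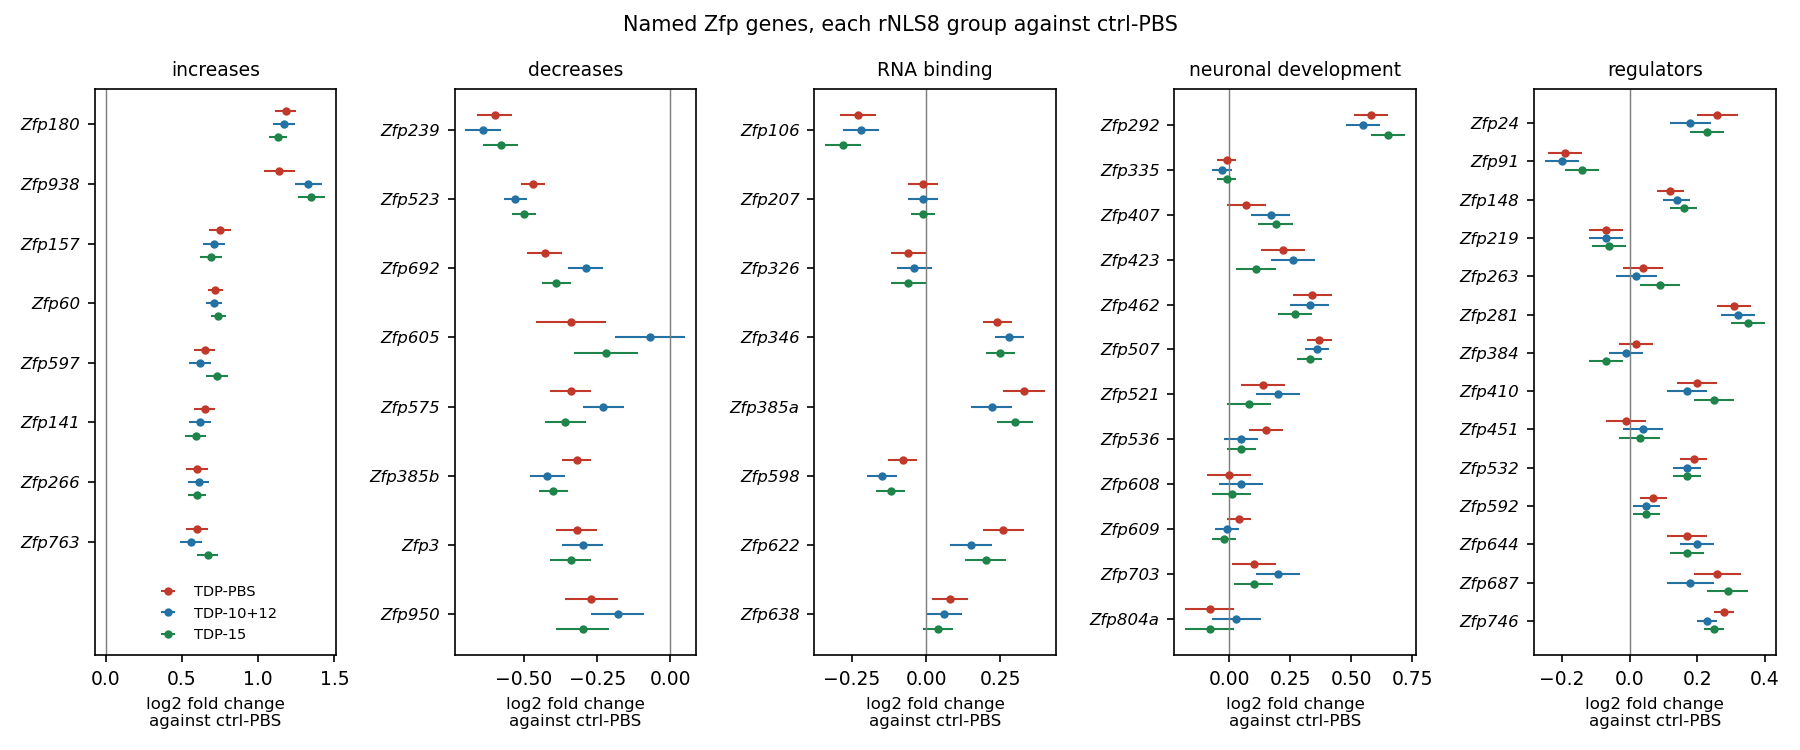
Log2 fold change against ctrl-PBS (x axis) with its SE for the 8 largest increases, the 8 largest decreases and the members with roles in RNA binding, neuronal development and transcription (y axis), in TDP-PBS, TDP-10+12 and TDP-15, which share the 17 controls. Zfp180 and Zfp938 exceed 1 in all 3 groups, and Zfp605 ranges from -0.34 in TDP-PBS to -0.07 in TDP-10+12.

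The machinery that KRAB proteins recruit was read from a list of its genes. Of 22 tested co-repressor genes 2 rose and 4 fell in TDP-PBS, and the median log2 fold change was 0.01. Of all 18220 genes tested, 21.9% rose and 21.6% fell. Trim28, the scaffold bound by KRAB domains, had 109 ± 6.38 CPM in ctrl-PBS and 112 ± 4.65 in TDP-PBS (0.03 ± 0.04 SE), and Setdb1 32.2 ± 3.15 and 32.5 ± 2.31 (0.01 ± 0.05 SE). Neither passed in any rNLS8 group. Atf7ip, the partner of Setdb1, rose from 89.7 ± 7.09 to 116 ± 13.8 CPM (0.37). The heterochromatin protein genes Cbx1 (-0.26) and Cbx3 (-0.26) fell, as did Dnmt1 (-0.12) and Chd3 (-0.13), while Cbx5 (-0.01) did not pass. Uhrf1, at 0.764 CPM in ctrl-PBS, was the other gene that rose. In related C2H2 families of the same minimum level, 14 of 36 Zbtb, Zscan and Zkscan genes rose and 7 fell, with a median of 0.07. Of all genes of at least 10 CPM, 25.5% rose and 28.6% fell.

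No Zfp gene differed detectably between vaccinated and PBS-treated rNLS8 mice or between the vaccines. Between TDP-10+12 and TDP-PBS, TDP-15 and TDP-PBS, and TDP-10+12 and TDP-15, 0 Zfp genes and 0 of 18220 genes passed in edgeR (0% called in each direction). Without adjustment, 5, 4 and 3 Zfp genes and 953, 552 and 1244 of all genes had a p-value under 0.05, and DESeq2 also called 0 Zfp genes. The log2 fold changes of the 182 genes lay between -0.22 and 0.27, -0.19 and 0.21, and -0.17 and 0.15. The 95% intervals of single genes had median half-widths of 0.14, 0.13 and 0.13, which describe single genes before adjustment. After adjustment over 18220 genes larger differences also missed the threshold, up to 0.27 in size, so none was detectable at this depth and group size, which does not show that the groups were alike.

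The genes with the smallest p-values show the scale of what was seen between rNLS8 groups. Zfp692 was 18.9 ± 1.39 CPM in TDP-PBS and 20.9 ± 2.91 in TDP-10+12, a log2 difference of 0.14 with an interval of 0.02 to 0.27 (edgeR adjusted p = 0.926). Zfp704 (0.18) and Zfp942 (-0.17) were next in that comparison. Zfp428 was 24.3 ± 3.27 CPM in TDP-PBS and 21.4 ± 2.05 in TDP-15, a log2 difference of -0.18 (edgeR adjusted p = 1), followed by Zfp626 (0.21) and Zfp341 (-0.14). Between TDP-10+12 and TDP-15, Zfp740 (-0.12), Zfp341 (0.15) and Zfp706 (0.08) led, with edgeR adjusted p-values of 0.616, 0.656 and 0.722. For the genes that changed most with genotype, the difference of TDP-10+12 from TDP-PBS had an interval of -0.16 to 0.14 for Zfp180, -0.03 to 0.40 for Zfp938, -0.17 to 0.10 for Zfp239 and -0.16 to 0.03 for Zfp523. For TDP-15 the intervals were -0.19 to 0.09, 0.01 to 0.42, -0.11 to 0.15 and -0.13 to 0.06 in the same order.

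Males and females did not differ in any Zfp gene at an adjusted p-value under 0.05, in edgeR with sex added to the groups (0.0202% of genes of at least 10 CPM were higher and 0.0907% lower in males). Without adjustment, 4 Zfp genes had a p-value under 0.05, and DESeq2 called 0. The log2 differences of the 182 genes lay between -0.13 and 0.13.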

How the data were processed

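The authors sequenced RNA from about 30 mg of neocortex per mouse (paired ends of 100 bp). The deposited table holds raw counts per gene symbol and mouse, 1 library per mouse, on GRCm38 (mm10). Per the labels, the submitters' processing notes name HISAT, HISAT2, Bowtie, Bowtie2 and RSEM, without roles. The annotation and strand setting are not given in the sources used here, so overlapping genes and near-identical copies are uncertain. Files hold 0 columns that were not used.

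Genes passed filterByExpr with group as the factor (min.count 10, min.total.count 15). Counts were scaled by TMM (factors 0.929 to 1.06) and fitted for all 49 mice with edgeR 4.0.16 (glmQLFit, glmQLFTest, R 4.3.3) without covariates. The tests were two-sided and adjusted by Benjamini-Hochberg over all 18220 genes tested. The common dispersion was 0.0263. Printed CPM are TMM-scaled, while the rule used CPM of the column totals. Log2 fold changes carry SEs derived from the F statistic, and intervals use 45 degrees of freedom. No 2 libraries of a group were copies (smallest chi-squared per degree of freedom 7.24). Each mouse is a separate animal, and mouse numbers do not pair groups. Intervals and floors cover counting error or the spread between mice only. The fits were tested on simulated counts.

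Proteins were translated from GENCODE M21, with fingers found by a C2H2 pattern and KRAB A boxes by a profile of 40 residues (score of at least 20, none between 10.4 and 22.8). Positions and promoters are from RefSeq (GRCm38.p6), in which all 182 genes were found by symbol. Named genes were the 8 largest increases and decreases in TDP-PBS among those that passed, the 5 highest per kb, the 4 most and 2 least variable, the 3 smallest p-values between rNLS8 groups, any called for sex, the 3 nearest the minimum on each side, the 3 left out, and the members of 4 lists by role. The members, the lists and the tests were chosen with earlier results of these data known. The alternatives were DESeq2's size factors, upper-quartile scaling, no filter, a minimum of 10 counts in each mouse, a sex covariate, separate fits of the groups compared, limma-voom (limma 3.58.1) with sample quality weights, DESeq2 1.42.0, minimum levels of 5 and 20 CPM, and the 3 left-out genes kept. Leaving out mouse 301 and choosing genes by the ctrl-PBS mean alone were added after seeing the data. Figures were drawn with matplotlib 3.10.9.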

Additional observations from a re-analysis of the deposited data

Results flagged for a closer look

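For the 68 named members, the highest and lowest mouse of TDP-PBS and of TDP-10+12 were set against the other 9 by Dixon's test. Of 136 sets of 10 values, 13 held a mouse that stood apart, and chance gives about 1 in 20. Mouse 301 of TDP-10+12 accounted for 7 of them, in each case as the highest value. It had 171 CPM of Zfp180 where the next mouse had 137, 32.7 of Zfp938 (next 24.3), 74.1 of Zfp60 (next 60.5) and 17.4 of Zfp597 (next 13.3). In the same mouse Zfp703 was at 135 CPM (next 95.8), Zfp804a at 41.2 (next 25.7) and Zfp644 at 49.1 (next 44.1). Without this mouse the number of Zfp genes that rose in TDP-10+12 was 74 in place of 68. In the same group mouse 277 was lowest for Zfp292 at 35.3 CPM (next 38.8).

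In TDP-PBS, mouse 82 was lowest for Zfp180 at 115 CPM (next 127), mouse 26 was lowest for Zfp592 at 32.7 CPM (next 40.9) and mouse 91 was lowest for Zfp687 at 37.8 CPM (next 51.1). Mouse 217 was highest for Zfp804a at 33.7 CPM (next 26.1) and mouse 42 for Zfp326 at 14.8 CPM (next 12.9). None of these mice was singled out by its label.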

How the results depend on the processing

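The numbers of Zfp genes that rose or fell in each rNLS8 group kept within 1.5 times their main value under both other scalings, both other filters, a sex covariate, separate fits of each pair of groups, quality-weighted limma-voom, DESeq2, the 3 left-out genes kept, mouse 301 left out and genes chosen by the ctrl-PBS mean. The exception was the level chosen as the minimum. With at least 20 CPM, 98 genes were left, of which 36 rose and 19 fell in TDP-PBS, 33 and 15 in TDP-10+12, and 37 and 19 in TDP-15, and the median log2 fold change was 0.05 in TDP-PBS and 0.05 in TDP-15. With at least 5 CPM, 268 genes were held, of which 104 rose in TDP-10+12 with a median of 0.11. Fewer or more genes were counted there by construction, and the cause of the shifted medians was not tested. Between rNLS8 groups and between the sexes 0 Zfp genes passed under every alternative run. Both other scalings moved the median of all genes by 0.00. Of 1836 values of 68 named genes under 9 alternatives, 1814 kept their direction and call, 13 lost and 9 gained a call, and 0 reversed. The 22 that changed call belong to 11 genes near the threshold, among them Zfp740, Zfp961, Zfp423, Zfp598, Zfp706 and Zfp407, and the cause was not tested. Without mouse 301 of TDP-10+12, Zfp622 passed in that group (0.20). A sex covariate and separate fits of the groups were not run for the comparison of the sexes, which holds sex already and uses all groups. No paired analysis was possible because no 2 groups share mouse numbers and the labels do not give the litters.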

Other observations

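The smaller C2H2 families gave sums of their own. The summed level of 5 Zscan genes was 115 to 137 CPM in ctrl-PBS with a median of 128, 145 to 167 CPM in TDP-PBS with a median of 153, 143 to 154 CPM in TDP-10+12 and 140.0 to 162 CPM in TDP-15, so that no rNLS8 mouse overlapped with a control. In TDP-PBS 3 of the 5 rose and 1 fell, where 25.5% of genes of at least 10 CPM rose and 28.6% fell. The sum of 25 Zbtb genes, many of which are repressors with a BTB domain, was 1063 to 1279.7 CPM in ctrl-PBS and 980.3 to 1226 CPM in TDP-PBS, and 8 rose and 5 fell. The sum of 6 Zkscan genes was 143 to 219 CPM in ctrl-PBS and 155 to 214 CPM in TDP-PBS, and 3 rose and 1 fell. Among markers of other cells in TDP-PBS, 1 of 8 astrocyte markers rose (Gfap, 1.64) and 2 fell (Slc1a2, -0.35, and Gja1, -0.29), 1 of 8 oligodendrocyte markers rose and 0 fell, and 1 of 8 endothelial markers rose and 0 fell.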
